A study of Homo sapiens with 6 samples.

Results

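Desmosome components were examined as a group of 9 genes, taken by symbol from a table of 60624 genes: the desmosomal cadherins DSG2, DSC2 and DSC3, the armadillo-repeat proteins JUP, PKP2, PKP3 and PKP4, the plakin DSP and the membrane protein PERP. The libraries were polyA RNA-seq libraries of A549 cells, a line derived from a human lung cancer, with 3 libraries of parental cells (genotype WT) and 3 libraries of RAVER1 knockout cells, made with Crispr/Cas9 and titled KO2. RAVER1 is an RNA-binding protein that acts with the splicing regulator PTBP1, and the series title places it between TGFB signalling, epithelial-mesenchymal transition and RISC activity. The labels list no treatment beyond the genotype and do not say whether KO2 is 1 clone, so the p-values below speak for this knockout population and not for separately made knockout lines. The series' design names the 3 libraries of a condition as biological replicates.

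Desmosomes are spot-like junctions that tie the intermediate filaments of neighbouring epithelial cells together. Desmogleins and desmocollins bind each other across the gap between cells, plakoglobin (JUP) and the plakophilins gather on their cytoplasmic tails, and desmoplakin (DSP) links that plaque to keratin. Loss of desmosomes and of other epithelial junctions is a known feature of epithelial-mesenchymal transition. In simple epithelia such as those of the lung, DSG2, DSC2 and PKP2 are the widely expressed forms, whereas DSG1, DSG3, DSC1 and PKP1 belong mainly to stratified epithelia such as skin.

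RAVER1 itself, which checks the labels, had 2510, 1996 and 2285 counts in the 3 parental libraries and 110, 112 and 79 after knockout, and fell to 3.94% of the parental level (edgeR adjusted p 1.24e-18). Total counts ran from 29811747 to 39910127 per library. The 5 epithelial markers EPCAM, CDH1, KRT8, KRT18 and KRT19 were detected in both groups. All 5 were lower in knockout cells at an edgeR adjusted p under 0.05, against 20.1% of all tested genes. Their sum was 6612 to 7247 CPM (counts scaled to a common library size with TMM factors) before and 3560 to 4116 CPM after knockout. Most of it came from KRT8 and KRT18, with parental means of 3761 and 2844 CPM. KRT7, a keratin of simple epithelia outside these 5, rose by 0.55 on the log2 scale. Of 3 leukocyte markers, CD3E had 0 counts in every library and PTPRC at most 2, and CD14 stood at -0.28 (edgeR adjusted p 0.0704), a value that passed the threshold under upper-quartile scaling (-0.32), with the replicate number as a block (-0.29) and when knockout replicate 1 was left out (-0.40).

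Most desmosome transcripts were less abundant in RAVER1 knockout cells. All 9 genes were past the low-count filter, 8 fell and 1, PKP4, rose in edgeR's quasi-likelihood test at an adjusted p under 0.05. Over all 16652 genes tested, 41.4% passed the same threshold, 20.1% as lower and 21.3% as higher. The median log2 fold change of the 9 genes was -0.55, against 0.0019 over all tested genes, and the largest falls were those of DSC2 (-1.38), DSP (-0.96) and PKP2 (-0.93). In CPM the parental and knockout libraries did not overlap for any of the 9 genes, which was also the case for 50.2% of all tested genes. When the test asked for a change beyond 1.5-fold, DSC2, DSP and PKP2 were past the threshold as lower, against 3.99% of all genes, and the other 6 members were not. In either direction 7.44% of all genes passed that test. In a bulk sample, fewer cells carrying a transcript and less of it per cell cannot be told apart.

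**Figure D1:**
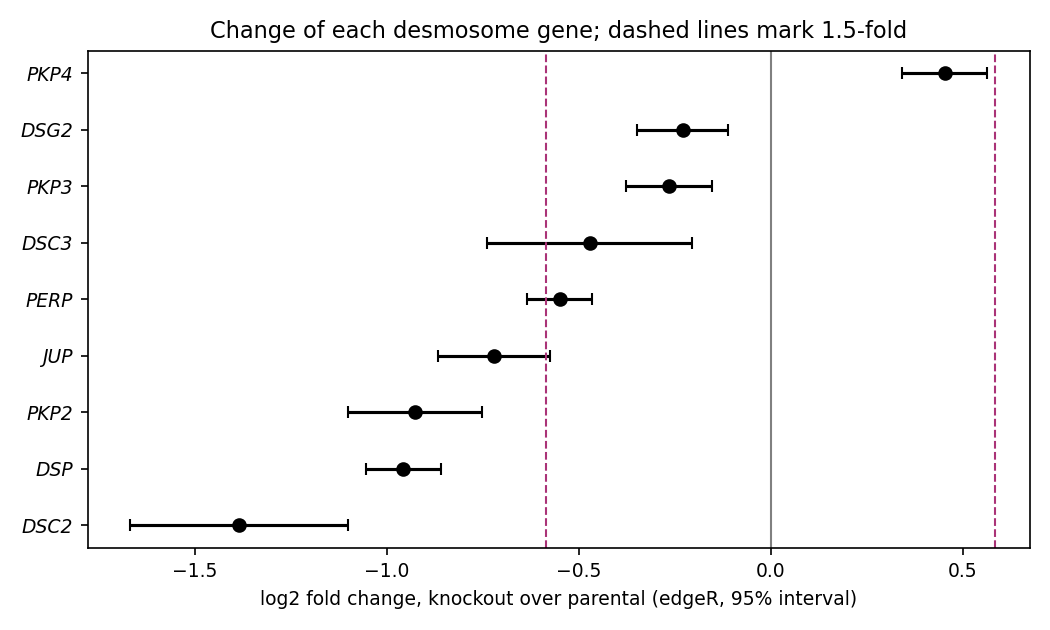
Log2 fold change of each desmosome gene in knockout over parental libraries (x axis, edgeR estimate with its 95% interval, 3 libraries per group), with dashed lines at 1.5-fold in either direction. DSC2, DSP and PKP2 lie wholly to the left of the lower dashed line, and PKP4 is to the right of 0 at 0.45.

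The desmosomal cadherins are the adhesive proteins of the junction, and DSG2 supplied most of their transcripts. DSG2 (ENSG00000046604, hg38 chromosome 18, 31498043 to 31549008, plus strand) measured 95.2, 107 and 105 CPM in parental replicates 1, 2 and 3 and 81.6, 94.0 and 86.5 CPM in knockout replicates 1, 2 and 3. The highest knockout library and the lowest parental library were 1.15 CPM apart, so the groups only just failed to overlap. DSG2 fell by 0.23 on the log2 scale (SE 0.057, edgeR adjusted p 0.00308), to 85.3% of the parental level, the smallest change among the 9 genes.

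DSC2, the desmocollin of simple epithelia (ENSG00000134755, hg38 chromosome 18, 31058840 to 31102522, minus strand), had few reads, with 187, 220 and 200 counts in parental and 96, 84 and 82 counts in knockout libraries. On the CPM scale these were 5.46, 7.24 and 6.15 in parental and 2.48, 2.11 and 2.64 in knockout libraries. Every knockout library was at under 3 CPM and every parental library above 5 CPM. DSC2 fell by 1.38 on the log2 scale (SE 0.13, edgeR adjusted p 1.1e-07), and was 2.61-fold lower (95% interval 2.15 to 3.18), the one member with a change of at least 2-fold, which 6.83% of all tested genes reached as called genes.

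DSC3, a desmocollin best known from stratified epithelia (ENSG00000134762, hg38 chromosome 18, 30990008 to 31042815, minus strand), was likewise scarce in parental cells. Its level was 4.73, 4.34 and 4.0 CPM in parental cells and 2.77, 3.39 and 3.29 CPM after knockout, from 102 to 162 counts. The groups were 0.61 CPM apart. DSC3 fell by 0.47 (SE 0.13, edgeR adjusted p 0.00573), with a 95% interval of -0.74 to -0.21.

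**Figure D2:**
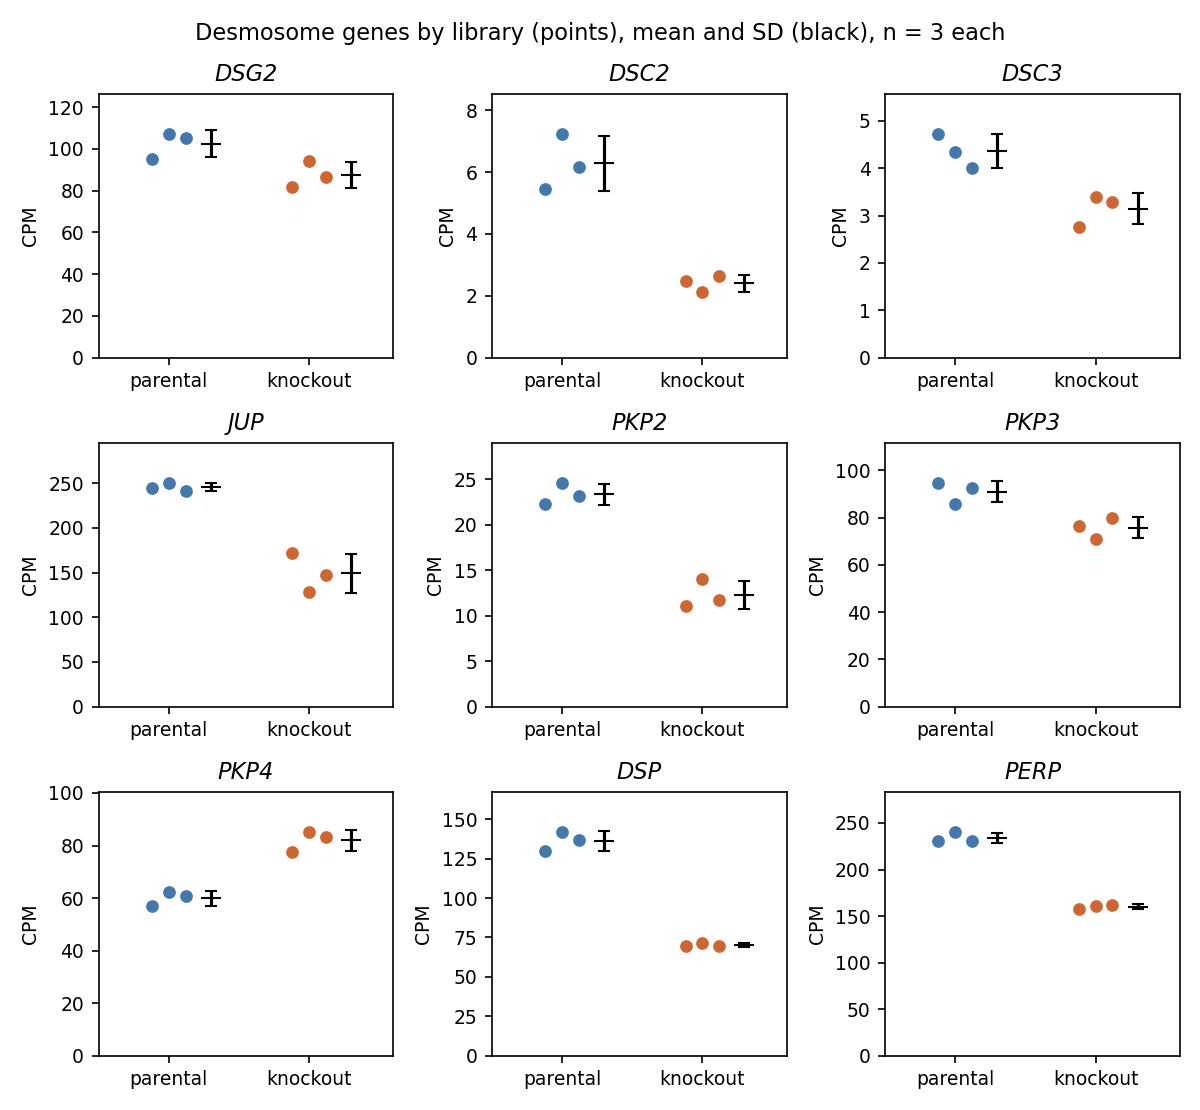
CPM of each desmosome gene in every library (points; parental left, knockout right), with the mean and SD of 3 libraries in black and a y axis from 0 in each panel. The knockout points are below the parental points in 8 panels and above them for PKP4, with gaps in absolute CPM that are narrowest for DSC3 (0.61) and DSG2 (1.15).

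The 3 expressed desmosomal cadherins lie in 1 cluster on chromosome 18, and the other desmogleins and desmocollins there were not detected. DSC1, DSG1, DSG4 and DSG3 had 0 counts in every library, and the neighbouring TTR, which encodes transthyretin, had at most 2. B4GALT6, a lactosylceramide synthase gene next to the cluster, stood at -0.096 (SE 0.11, edgeR adjusted p 0.529). The 24 tested genes around DSC2, which include DSC3 and DSG2, had a median log2 fold change of -0.11, and 1.3% of the other 231 tested genes on chromosome 18 had a lower value than DSC2. The same share was 11.3% for DSC3 and 24.7% for DSG2. Among the other cadherins of the chromosome, CDH2, which encodes N-cadherin, was at 0.060 (edgeR adjusted p 0.312). CDH7, a further cadherin gene of the chromosome, had 0 counts in every parental library and 35, 32 and 21 counts in knockout replicates 1, 2 and 3. Its knockout level of 0.795 ± 0.115 CPM (SD, n = 3) was at least 8.05-fold higher than the level that 3 counts in a parental library would give, and it was not tested under a 1 CPM filter. Of the 11 genes in that list 6 were tested, and 3 fell (DSC2, DSC3 and DSG2) and 1 rose (CDH7). The same calls were made for 20.1% and 21.3% of all tested genes.

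The armadillo-repeat proteins form the plaque under the membrane. JUP, which encodes plakoglobin (ENSG00000173801, hg38 chromosome 17, 41754604 to 41786931, minus strand), measured 245, 250 and 242 CPM in parental and 172, 128 and 148 CPM in knockout replicates. The parental libraries were tightly grouped, with a coefficient of variation of 1.78%, whereas the knockout libraries spread over 14.6%, the widest knockout spread of the 9 genes. JUP fell by 0.72 on the log2 scale (SE 0.069, edgeR adjusted p 9.79e-08), to 60.7% of the parental level.

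PKP2, the plakophilin of simple epithelia and heart muscle (ENSG00000057294, hg38 chromosome 12, 32790745 to 32896840, minus strand), measured 22.3, 24.6 and 23.1 CPM before and 11, 14 and 11.7 CPM after knockout. All 3 knockout libraries were at least 8.26 CPM under the lowest parental one. PKP2 fell by 0.93 (SE 0.083, edgeR adjusted p 3.75e-08), and was 1.90-fold lower (95% interval 1.68 to 2.15).

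PKP3, a plakophilin that binds most desmosomal cadherins (ENSG00000184363, hg38 chromosome 11, 392614 to 404908, plus strand), fell slightly. It measured 94.8, 85.9 and 92.4 CPM in parental cells and 76.5, 70.9 and 80.0 CPM after knockout, which left 5.95 CPM between the groups. PKP3 fell by 0.27 (SE 0.053, edgeR adjusted p 0.00052), to 83.2% of the parental level.

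PKP4, also called p0071, an armadillo protein found at both desmosomes and adherens junctions, was the member that rose (ENSG00000144283, hg38 chromosome 2, 158456964 to 158682879, plus strand). It measured 56.9, 62.3 and 60.7 CPM in parental and 77.6, 85.2 and 83.2 CPM in knockout replicates, a gap of 15.3 CPM. PKP4 rose by 0.45 on the log2 scale (SE 0.053, edgeR adjusted p 1.09e-06), or 1.37-fold (95% interval 1.27 to 1.48).

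PKP4 is also the one member on chromosome 2, whose genes were shifted upward in the knockout libraries. The other 1108 tested genes with a position on that chromosome had a median log2 fold change of 0.42, and 84.9% of them were above 0. Of all 1125 tested genes there, 66.8% rose. The 24 tested neighbours of PKP4 had a median of 0.45, with 14 higher and 2 lower, and 53.7% of the chromosome's genes were below the value of PKP4. The rise of PKP4 was therefore close to the middle of its chromosome, and a change of the gene alone and a change of the chromosome cannot be told apart from these counts. For the 8 members that fell, the medians of their chromosomes lay between -0.045 (chromosome 17) and 0.11 (chromosome 11). The medians of their tested neighbours lay between -0.14 (PKP2) and 0.14 (PERP). Of 24 neighbours, 8 fell and 1 rose around JUP, and 7 fell and 1 rose around PKP2. Around DSP 4 fell and 4 rose, and around PERP 4 fell and 9 rose. Of 23 neighbours of PKP3, 3 fell and 6 rose. Over all tested genes, 20.1% fell and 21.3% rose.

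**Figure D3:**
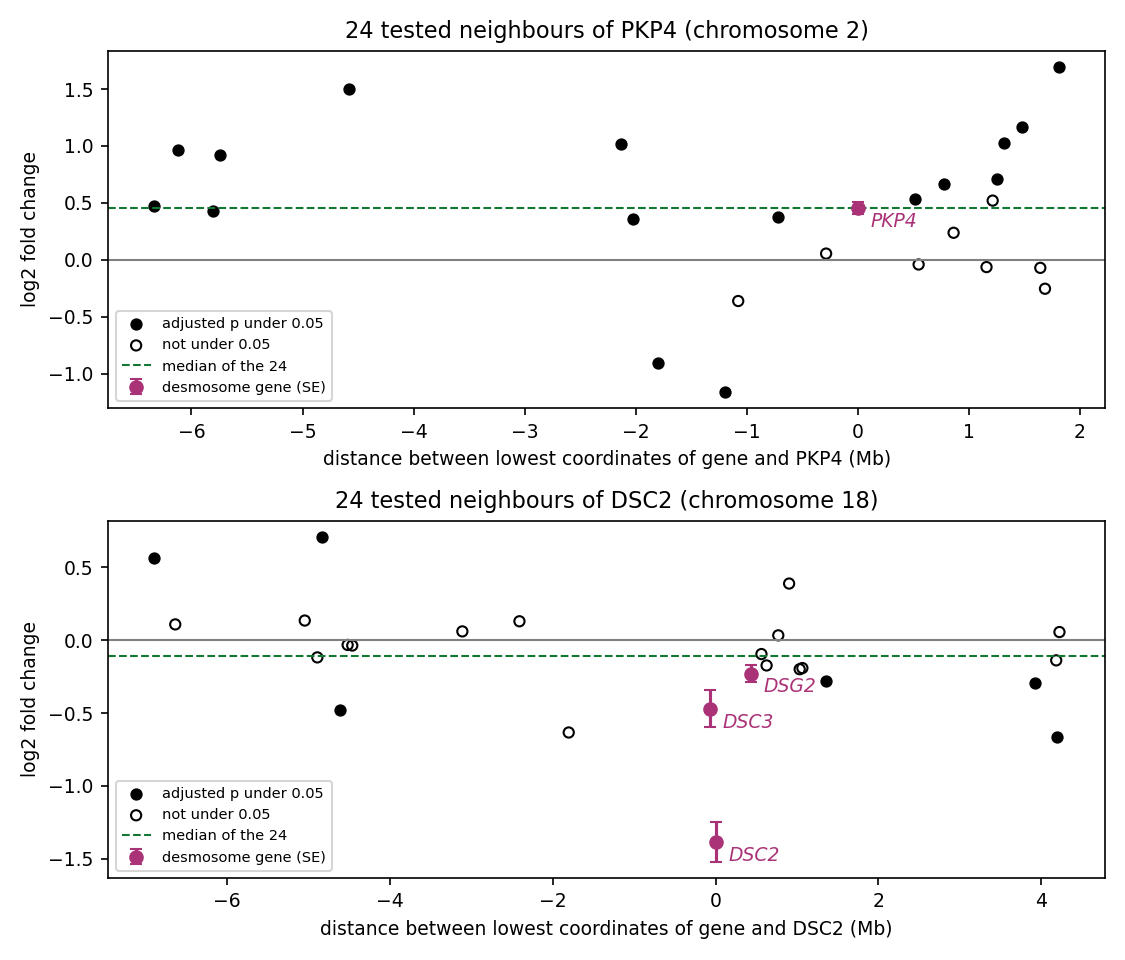
Log2 fold change of the 24 tested genes around PKP4 (top) and DSC2 (bottom) against their distance in Mb; filled circles have an edgeR adjusted p under 0.05, purple points are desmosome genes with their SE, and the dashed line is the median of the 24. PKP4 sits on the dashed line at 0.45, whereas DSC2 at -1.38 is far below its line at -0.11.

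DSP encodes desmoplakin, the plakin that anchors keratin filaments to the plaque (ENSG00000096696, hg38 chromosome 6, 7541575 to 7586717, plus strand). It measured 130, 142 and 137 CPM before and 69.5, 71.7 and 69.4 CPM after knockout. The knockout libraries were nearly equal to each other, with a coefficient of variation of 1.85%, and 58.0 CPM separated the groups. DSP fell by 0.96 on the log2 scale (SE 0.047, edgeR adjusted p 6.22e-12), the smallest p of the 9 genes, and was 1.94-fold lower (95% interval 1.81 to 2.08).

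PERP encodes a tetraspan membrane protein needed for stable desmosomes in stratified epithelia and is a known target of p63 (ENSG00000112378, hg38 chromosome 6, 138088505 to 138107511, minus strand). It measured 231, 241 and 231 CPM in parental cells and 157, 160 and 162 CPM after knockout. Both groups were narrow, with 68.7 CPM between them. PERP fell by 0.55 (SE 0.040, edgeR adjusted p 2.16e-09), to 68.3% of the parental level. TP63, which encodes p63 and was picked out with its value known, stood at 0.014 (edgeR adjusted p 0.961).

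To compare levels between genes, the counts were also divided by the gene length in the deposited table (RPKM, the CPM per kilobase of gene length). In parental cells PERP was highest at 55.8 ± 1.29 RPKM (SD, n = 3), followed by JUP at 49.7, PKP3 at 24, DSG2 at 16.9, DSP at 13.6, PKP4 at 6.29 and PKP2 at 3.35 RPKM. The desmocollins came last, with DSC3 at 0.566 ± 0.0472 and DSC2 at 0.503 ± 0.0720 RPKM, and these were the only neighbours in the order whose parental libraries overlapped. PERP and JUP stood at the 95.2 and 94.5 percentiles of all tested genes in parental RPKM, and DSC2 at 19.2. In knockout cells no neighbours in the order overlapped, and the order was the same except that PKP4, at 8.61 ± 0.413 RPKM, stood above DSP, at 6.98 ± 0.129 RPKM. This order depends on the gene lengths used. In mean CPM, DSC2 was above DSC3 in parental cells (6.28 against 4.36) and below it after knockout (2.41 against 3.15).

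DSG2 made up 94.05% of the summed RPKM of the 3 desmosomal cadherins in parental and 96.0% in knockout libraries. Their summed level was 18 ± 1.09 RPKM in parental and 15 ± 1.06 RPKM in knockout libraries (SD, n = 3 each), with ranges of 16.8 to 18.9 and 14 to 16.1. Among the plakophilins, the share of PKP2 went from 9.96% to 5.80% and that of PKP3 from 71.3% to 65.8%, while the share of PKP4 went from 18.7% to 28.4%. The summed plakophilin level was 33.6 ± 0.794 RPKM in parental and 30.3 ± 1.00 RPKM in knockout libraries. Without PKP4, the share of PKP3 went the other way, from 87.7% to 91.9% of the sum of PKP2 and PKP3, and that sum was 27.3 RPKM in parental (range 26.2 to 28.2, n = 3) and 21.7 RPKM in knockout libraries (range 20.7 to 22.8, n = 3).

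**Figure D4:**
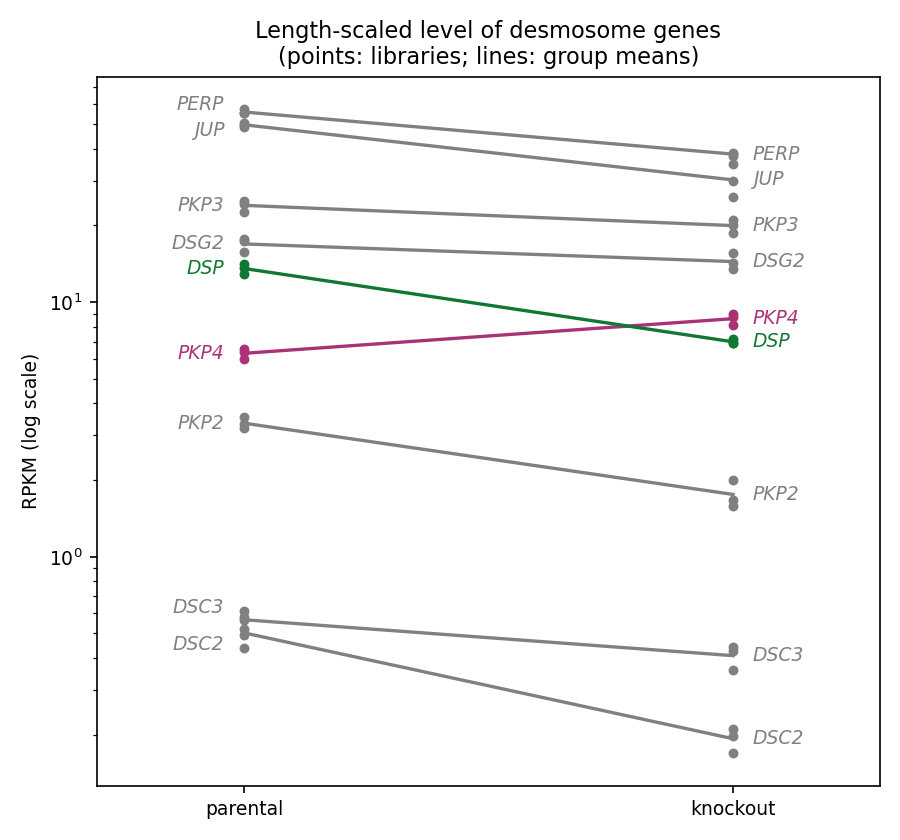
RPKM of the desmosome genes (log y axis) in parental (left) and knockout (right) libraries, with points for libraries and lines between group means. The lines of DSP (green) and PKP4 (purple) cross, and those of the other 7 genes keep their order.

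Ratios between members restate their fold changes without any scaling of libraries. A ratio of 2 genes' counts within a library needs no library size, and 6 such ratios were compared with a two-sided exact permutation test, whose smallest possible p with 3 libraries against 3 is 0.1, so no ratio could pass 0.05. There were 1.78, 1.69 and 1.69 PERP reads per DSP read in parental and 2.27, 2.24 and 2.34 in knockout libraries, a change of 0.41 on the log2 scale. The ratio of PKP4 to PKP2 went from 2.55, 2.54 and 2.62 to 7.03, 6.09 and 7.12, a change of 1.39. The ratio of DSG2 to DSC2 was higher by 1.15, that of DSC3 to DSC2 by 0.91 and that of PKP3 to PKP2 by 0.67. In these 5 ratios the groups did not overlap, each with an exact p of 0.1 and an adjusted p of 0.12 over the 6. The ratio of JUP to DSP, at 1.89, 1.76 and 1.77 in parental and 2.47, 1.79 and 2.13 in knockout libraries, overlapped between groups (change 0.23, exact permutation p 0.2, adjusted p 0.2). That change was 0.11 with knockout replicate 1 left out and 0.35 with knockout replicate 2 left out.

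**Figure D5:**
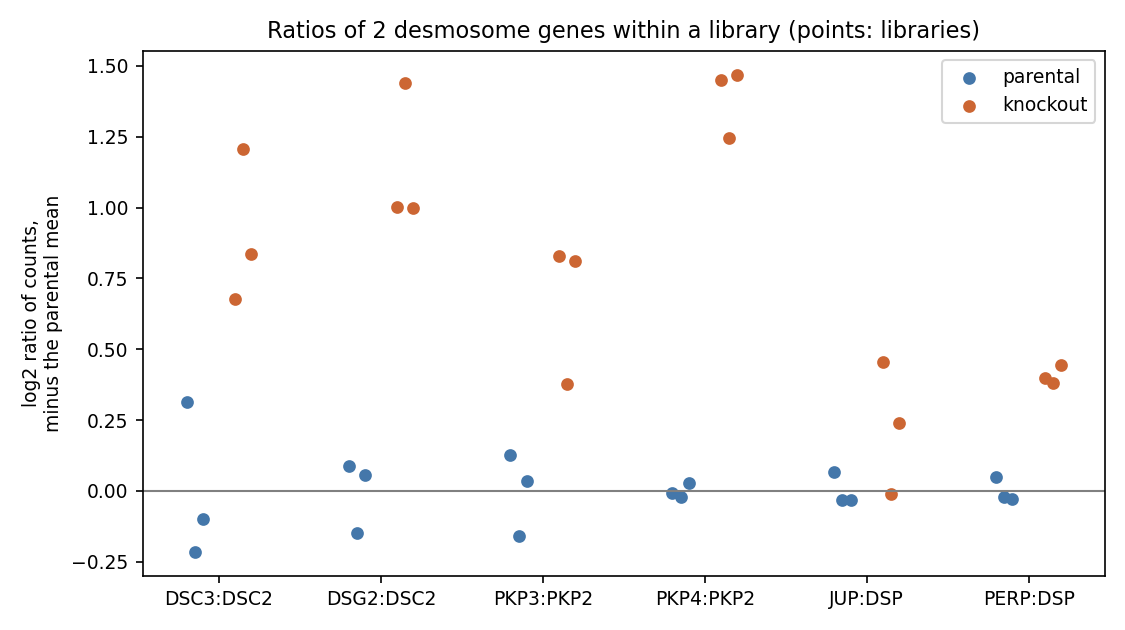
Log2 ratio of the counts of 2 desmosome genes in each library, minus the parental mean of that ratio (y axis), for 6 pairs, with parental libraries in blue and knockout libraries in orange. Knockout points lie above all parental points in 5 pairs, and 1 knockout library falls among the parental ones for JUP over DSP.

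Other desmosome and envelope genes were mostly not expressed. Of 9 such genes, DSG1, DSG3, DSG4, DSC1 and CDSN had 0 counts in every library and PKP1 had 1 count in 1 library, which left 3 to be tested. PPL encodes periplakin, a plakin related to desmoplakin, and measured 24.7, 23.8 and 23.1 CPM in parental and 13.2, 10.9 and 13.1 CPM in knockout replicates. PPL fell by 0.95 (SE 0.078, edgeR adjusted p 1.06e-08), a value close to that of DSP. EVPL, which encodes envoplakin, fell by 0.15 (SE 0.058, edgeR adjusted p 0.0407). EVPL no longer passed when any of 4 libraries was left out, namely parental replicate 1 (-0.083) or 3 (-0.17) and knockout replicate 2 (-0.12) or 3 (-0.17), nor with TMM factors computed without chromosome 2 (-0.14). KAZN, which encodes the plakin-binding protein kazrin, rose by 0.55 (SE 0.11, edgeR adjusted p 0.000567) from 5.46, 4.31 and 4.52 to 7.47, 7.09 and 6.38 CPM.

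The keratins and other filament genes, to which desmosomes attach, split. Of 9 tested genes in a list of 10, 4 rose and 4 fell, with a median log2 fold change of 0.048. Among all tested genes, 21.3% rose and 20.1% fell. KRT8 fell by 0.73 and KRT18 by 0.94, the keratin pair of simple epithelia, and KRT19 fell by 1.89. KRT7, another keratin of simple epithelia, rose by 0.55 (SE 0.044, edgeR adjusted p 8.52e-09), from 1985 ± 111 to 2906 ± 65 CPM (SD, n = 3 each). KRT81 rose by 0.72 (SE 0.051), from 3813 ± 255 to 6271 ± 321 CPM (SD, n = 3 each), and its reads may not be separable from those of near-identical hair keratin genes such as KRT86.

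Hemidesmosomes tie keratin to the basement membrane instead of to a neighbouring cell, and their genes went both ways. Of 9 tested genes, 6 rose and 2 fell, with a median of 0.20, against 21.3% and 20.1% of all tested genes. Only 5 rose under upper-quartile scaling and with parental replicate 2 or knockout replicate 3 left out. Against a 1.5-fold change, 1 rose and 1 fell. The laminin chain genes LAMA3 (1.44) and LAMB3 (0.57) rose. ITGB4, the integrin of the hemidesmosome, fell by 1.97 (SE 0.053, edgeR adjusted p 1.2e-15), more than any desmosome member. ITGA6, its partner and the other gene that fell, is named because the count is small; it lies on chromosome 2 and fell by 0.18. ITGA6 no longer passed when parental replicate 2 (-0.13) or 3 (-0.17) or knockout replicate 1 (-0.12) was left out.

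Among armadillo relatives and adherens junction partners, 10 of 12 were tested, 3 fell and 3 rose, with a median of -0.0075. Over all tested genes, 20.1% fell and 21.3% rose. CDH1, which encodes E-cadherin, fell by 2.20 and the nectin gene NECTIN1 by 0.53. CTNNB1, which encodes beta-catenin, the closest relative of plakoglobin, rose by 0.29 (SE 0.038, edgeR adjusted p 6e-06), the opposite direction to JUP. VCL, which encodes vinculin, rose by 0.21.

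Of 39 regulators of desmosome assembly, turnover or transcription, 31 were tested, 13 rose and 4 fell, with a median of 0.10. The shares over all tested genes were 21.3% higher and 20.1% lower. With parental replicate 1 or knockout replicate 3 left out, 8 rose and 3 fell, and with the replicate number as a block 15 rose and 6 fell. The transcriptional repressors SNAI1 (2.72, SE 0.12), SNAI2 (2.02, SE 0.11) and ZEB2 (1.29, SE 0.11) rose, the last on chromosome 2. SNAI1 measured 2.15 ± 0.293 CPM before and 14.2 ± 1.45 CPM after knockout (SD, n = 3 each). ADAM17, a metalloprotease known to shed DSG2 and also on chromosome 2, rose by 0.56 (SE 0.051, edgeR adjusted p 3.83e-08). GRHL2, a transcription factor of epithelial junction genes, had at most 1 count in a library, and the epithelial splicing factors ESRP1 and ESRP2 at most 7 and 4. GRHL2, ESRP1 and ESRP2 were picked out with their values known.

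Of the markers of keratinocytes and cardiomyocytes, 2 other desmosome-rich cell types, most were at or near 0 in both groups, apart from KRT10 and NKX2-5, which carried most of each list's summed level. Of 11 keratinocyte markers, KRT1, IVL and LORICRIN had 0 counts in every library, KRT5 at most 4, and 2 were tested. KRT10 fell by 0.38 (edgeR adjusted p 3.87e-06), in a list whose summed level was 70.8 to 74.8 CPM in parental and 55.3 to 57.1 CPM after knockout. The part of such cells in the desmosome values was not tested. Of 10 cardiomyocyte markers, TNNT2, MYH6, MYH7 and MYL7 had 0 counts in every library. NKX2-5, a cardiac transcription factor gene, rose by 0.27 (SE 0.073, edgeR adjusted p 0.00606) and TNNI3, the other tested marker, stood at -0.50 (edgeR adjusted p 0.0969). The list's sum ran from 13.4 to 14.8 CPM before and 16 to 16.8 CPM after knockout.

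Promoter sequence was searched for the E-box CAGGTG, which SNAI and ZEB proteins bind and whose other strand reads CACCTG. RefSeq windows of 250 bases before to 50 bases after a start (GRCh38.p14) matched 7 of the 9 members with 10 windows. PKP2 and PKP3, which both fell, had no window and were not searched. An E-box in either orientation was present in 4 of these 10 windows, belonging to DSP, JUP, DSC2 and DSG2, against 20.6% of 35116 windows over all genes. The GRHL motif AACCNGGTT was in 0 of the 10 windows and in 0.239% of all windows. The parts of 4 windows that lie upstream of every annotated start are shown 5′ to 3′ with the E-box in capitals, for 2 members with large falls (DSP, chr6:7541421-7541574, plus strand; DSC2, chr18:31102523-31102671, minus strand), for DSG2, which changed least (chr18:31497927-31498042, plus strand), and for PKP4, which rose and has none (chr2:158456702-158456951, plus strand).
DSP: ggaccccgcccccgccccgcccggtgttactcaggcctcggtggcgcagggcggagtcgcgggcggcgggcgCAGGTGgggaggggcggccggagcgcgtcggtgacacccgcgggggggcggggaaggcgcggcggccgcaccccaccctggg
DSC2: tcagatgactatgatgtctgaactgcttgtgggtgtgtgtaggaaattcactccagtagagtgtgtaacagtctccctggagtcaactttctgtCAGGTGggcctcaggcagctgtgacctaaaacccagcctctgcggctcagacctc
DSG2: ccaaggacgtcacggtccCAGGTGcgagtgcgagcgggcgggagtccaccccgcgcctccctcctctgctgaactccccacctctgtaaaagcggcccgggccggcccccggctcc
PKP4: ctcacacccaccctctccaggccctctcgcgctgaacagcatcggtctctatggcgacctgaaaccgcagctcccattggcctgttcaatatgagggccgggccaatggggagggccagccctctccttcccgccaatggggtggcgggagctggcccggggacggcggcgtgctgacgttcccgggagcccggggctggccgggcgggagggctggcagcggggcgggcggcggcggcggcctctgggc

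In DSP the E-box shown starts 178 bases before the RefSeq start and another lies 85 bases before it. In DSC2 it lies inside the upstream window of the gene and starts 156 bases before the RefSeq start of that window. DSG2 has 1 at 232 and 1 at 116 bases before the start. The JUP pair is in the window of its downstream start, at 54 and 43 bases before it. PERP and DSC3, which also fell, have no E-box in their windows, nor does PKP4, which rose. The motif was present in a gene that fell 2.61-fold and in a gene that fell to 85.3% of its parental level. Binding was not measured, and a part of SNAI or ZEB proteins in these changes was not tested.

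Across the 6 libraries, the genes whose log2 CPM followed that of DSC2 most closely were PRICKLE2, ONECUT2 and RPRD2, with Pearson r of 0.999, 0.998 and 0.998 among 11129 genes of at least 5 CPM in a group. With 2 groups of 3 libraries such values are common, and 885 genes had an r over 0.95. ONECUT2, a transcription factor gene on chromosome 18, fell by 1.40, and PRICKLE2, a planar polarity gene, fell by 0.39.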

How the data were processed

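Counts were deposited as 1 raw whole-number read count per gene and library. Per the submitters' processing notes, the authors used cutadapt 2.8, HISAT2 2.1.0, SAMtools 1.10 and featureCounts 2.0.0 on hg38. Per the labels' protocols, the RNA was extracted with TRIZOL and the library kit was stranded. The annotation release, the strand setting of counting and the handling of multi-mapped reads are not stated in the labels, headers or processing notes. Other columns of the table deposited by the authors hold gene lengths in bases, which served for RPKM. PKP4 and DSG2 share 418 and 171 exonic bases with antisense genes that had at most 3 counts in a library, and the pseudogene PKP4P1 had at most 9.

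The members and lists were chosen with earlier results of these data known. The counts went into edgeR 4.0.16 under R 4.3.3 (filterByExpr, TMM, quasi-likelihood F-test, no covariate), with Benjamini-Hochberg adjustment over the 16652 genes tested. An SE is the absolute log2 fold change over the square root of F. Positions came from GENCODE release 29 on the same build. Named genes were the 9 members, RAVER1, every gene of the lists of other desmosome genes and of the chromosome 18 cluster, and up to 4 members of each further list (filaments, hemidesmosomes, adherens junction partners, regulators, epithelial, keratinocyte, cardiomyocyte and leukocyte markers) with the smallest adjusted p past the threshold, of which 1 is not reported here. Outside that rule, and with their values known, the text names KRT7, ITGA6, TP63, GRHL2, ESRP1, ESRP2, TNNI3, CD14 and marker genes at or near 0. Alternatives were other scalings and filters, DESeq2 1.42.0, limma-voom (limma 3.58.1), the replicate number as a block, a test against a 1.5-fold change and leaving out each library. Replicates of a group differed by more than counting noise (chi-square per degree of freedom 2.42 to 8.86).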

Additional observations from a re-analysis of the deposited data

How the results depend on the processing

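The count of 8 members lower and 1 higher was the same under RLE and upper-quartile scaling, TMM factors without chromosome 2, no filter on low counts, a 1 CPM filter, DESeq2, limma-voom, the replicate block and each of the 6 libraries left out, so each of the 9 calls held in all 14 of these alternatives. With 1 library left out, DSG2 ran from -0.28 to -0.18 (highest edgeR adjusted p 0.0202) and DSC3 from -0.54 to -0.38 (0.0328). Against a 1.5-fold change, 0 members were higher and 3 lower, and over all genes 575 were higher and 664 lower, which asks for a larger change and so counts fewer genes. Upper-quartile scaling put 3098 of all genes higher and 3872 lower, against 3543 and 3343. Leaving out 1 library gave 2934 to 3837 genes higher and 2864 to 3619 lower. With the replicate block the members stayed at 8 lower and 1 higher, and 4275 genes were higher and 4071 lower. Correlations of the deviations of same-numbered libraries were 0.278, 0.139 and 0.0692, the highest for each parental replicate. Knockout replicate 3, in turn, correlated best with parental replicate 2 (0.114). The labels do not say what the numbers mark, so the numbers were not used to pair libraries in the main fit. The 6 ratios kept their direction in all 7 alternatives each, a small constant added to the counts and each library left out. Where the groups did not overlap, leaving out a library could not reverse the direction, so those ratios were not put to a test by it. JUP to DSP, whose groups overlapped, ranged from 0.11 to 0.35. With 82 to 220 counts per library, DSC2 and DSC3 were the least precise members.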
